A study of Mus musculus with 4 samples.

Results

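The cell cycle genes described here are 55 genes of S phase and of G2/M phase, taken by symbol from a given list, out of 32285 features counted in every library. That list was chosen with earlier results of these data known. By textbook role 20 belong to S phase (DNA copying) and 33 to G2 and mitosis. The other two, Diaph3 and Rad51b, were given no phase. All 55 symbols were found once in each of the 4 libraries, and they were sorted into 12 role groups that hold between 1 and 9 genes. Raw counts of unique molecular identifiers (UMIs, 1 per captured RNA molecule) were summed per library and cell class. A cell was called cycling when its UMIs of Mki67, Top2a and Pclaf together reached 3. A share of cycling cells and the levels of these 3 genes are therefore not separate evidence of each other.

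The study compared immune cells of tumours grown from MC38, a mouse colon carcinoma cell line, in wild-type (WT) mice and in mice whose gene Trim25, for a ubiquitin ligase, was conditionally knocked out (cKO). The title of the series places the knockout in T cells and names VISTA, an inhibitory immune receptor, and immunotherapy. Mice were 8 weeks old and received 100000 tumour cells under the skin. Tumour cells were sorted by flow cytometry for CD45, a surface protein of leukocytes, before droplet 3' RNA sequencing. Both genotypes carried the same tumour line and the sort was the same. The sources used here do not give the Cre driver or the deleted exons. There were 2 libraries per genotype, WT-1 and WT-2 for the first, cKO-1 and cKO-2 for the second, and sets of 4 values are given in this order throughout. The sources used here do not say whether each library is from a different mouse, so a p-value here reflects spread between libraries that may be technical.

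A dividing cell first loads the MCM helicase on replication origins and then copies its DNA in S phase, with the clamp PCNA and a supply of nucleotides. In G2 and mitosis cyclin A and cyclin B activate Cdk1, condensins and topoisomerase II shape the chromosomes, and kinetochores, spindle motors and the passenger complex separate them. Transcription of S phase genes is driven by E2F factors, while many G2/M genes are silenced in resting cells by the DREAM complex through a CHR element and are activated by NF-Y at CCAAT boxes. In tumours these genes mark the expansion of activated lymphocytes and the local division of some myeloid cells.

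Libraries held 96751399 to 127449324 UMIs in 8533 to 12318 barcodes, and 8205 to 12092 cells per library passed the filters, with a median of 7796 to 10017 UMIs. Pairs of libraries shared 42 to 59 barcodes, and their counts differed far beyond sampling noise (chi-square per degree of freedom 70.2 within WT and 55.6 within cKO). Trim25 itself in all T cells was at 63.8, 59.7, 47.9 and 44.2 CPM (counts scaled to a class total of 1000000). That difference did not pass the test (log2 fold change -0.40 ± 0.11 SE, adjusted p 0.301), and whether the counted 3' ends lie in the deleted part was not tested. In CD4 conventional T cells Trim25 was at 62.9, 81.6, 65.0 and 60.3 CPM, with overlapping groups. Cell classes are clusters named from fixed marker genes, so each name means "like" that cell type.

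Promoter sequences are shown for 6 genes on which the results turn, because the motifs they hold differ in frequency between S and G2/M genes. RefSeq promoters on GRCm38.p6 were matched for 47 of the 55 genes. Each sequence runs 5′ to 3′ on the strand of the gene, from 200 bases before the start site to the 30 bases from the start on. Capitals mark exact matches on either strand to the CHR letters TTTGAA or TTCGAA, to the NF-Y box CCAAT, or to the E2F letters TTTCCCGC, TTTGGCGC or TTTCGCGC. Cenpf lies at chr1:189688057-189688286 on the minus strand, Mki67 at chr7:135716350-135716579 on the minus strand and Top2a at chr11:99024160-99024389 on the minus strand. Cdk1 lies at chr10:69352883-69353112 on the minus strand and Pclaf at chr9:65890123-65890352 on the plus strand. Rad51b has 2 start sites on the plus strand, at chr12:79297082-79297311 and chr12:79297151-79297380.
Cenpf: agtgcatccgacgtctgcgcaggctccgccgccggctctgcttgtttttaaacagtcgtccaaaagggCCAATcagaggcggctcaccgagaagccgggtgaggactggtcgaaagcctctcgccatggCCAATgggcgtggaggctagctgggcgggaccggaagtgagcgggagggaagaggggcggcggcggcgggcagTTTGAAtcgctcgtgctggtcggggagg
Mki67: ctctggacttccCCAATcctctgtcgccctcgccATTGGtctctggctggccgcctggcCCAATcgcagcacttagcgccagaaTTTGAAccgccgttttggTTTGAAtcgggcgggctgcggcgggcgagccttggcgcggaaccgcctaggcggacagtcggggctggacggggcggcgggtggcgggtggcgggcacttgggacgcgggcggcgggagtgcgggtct
Top2a: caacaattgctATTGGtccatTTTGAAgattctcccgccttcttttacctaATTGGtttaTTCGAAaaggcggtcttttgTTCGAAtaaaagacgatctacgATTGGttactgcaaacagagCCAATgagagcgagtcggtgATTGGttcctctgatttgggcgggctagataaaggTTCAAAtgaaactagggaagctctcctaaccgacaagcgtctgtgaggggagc
Rad51b, upstream start: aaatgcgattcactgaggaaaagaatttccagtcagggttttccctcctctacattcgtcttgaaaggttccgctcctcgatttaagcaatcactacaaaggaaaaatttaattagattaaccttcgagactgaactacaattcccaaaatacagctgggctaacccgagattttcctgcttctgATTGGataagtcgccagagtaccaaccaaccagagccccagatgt
Rad51b, downstream start: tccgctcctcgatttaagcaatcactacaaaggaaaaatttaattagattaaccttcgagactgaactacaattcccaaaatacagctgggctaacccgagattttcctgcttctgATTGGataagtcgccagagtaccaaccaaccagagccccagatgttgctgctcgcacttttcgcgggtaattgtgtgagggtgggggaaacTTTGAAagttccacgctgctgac
Cdk1: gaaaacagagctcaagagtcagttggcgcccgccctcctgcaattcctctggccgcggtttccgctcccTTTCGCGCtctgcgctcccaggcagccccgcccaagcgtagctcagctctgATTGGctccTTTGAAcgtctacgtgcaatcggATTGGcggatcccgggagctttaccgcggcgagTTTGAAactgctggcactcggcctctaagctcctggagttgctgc
Pclaf: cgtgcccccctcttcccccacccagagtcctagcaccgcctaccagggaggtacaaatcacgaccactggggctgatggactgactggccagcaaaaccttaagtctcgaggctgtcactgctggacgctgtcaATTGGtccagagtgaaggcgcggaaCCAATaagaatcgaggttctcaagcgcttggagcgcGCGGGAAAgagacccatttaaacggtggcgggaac

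Over windows of 250 bases before to 50 after the start, CHR letters were found in 23 of 28 G2/M genes (82.1%), in 3 of 17 S genes (17.6%) and in 21.7% of the 27025 genes of the whole table. E2F letters showed the opposite order, with 8 of 17 S genes (47.1%), 3 of 28 G2/M genes (10.7%) and 2.12% of all genes. The NF-Y box was found in 78.6% of the G2/M genes, 64.7% of the S genes and 41.1% of all genes. In the printed sequences the CHR of Cenpf begins 2 bases after the first transcribed base, while Mki67 has its pair 116 and 98 bases before it. The CHR matches of Cdk1 begin 71 and 15 bases before the first transcribed base, and an E2F match 131 bases before. Pclaf, an S gene, has an E2F match 5 bases before its start and no CHR letters in the window. Of the 2 Rad51b windows, the downstream one has CHR letters 7 bases after its start. These are matches of letters, with no measurement of binding.

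**Figure D1:**
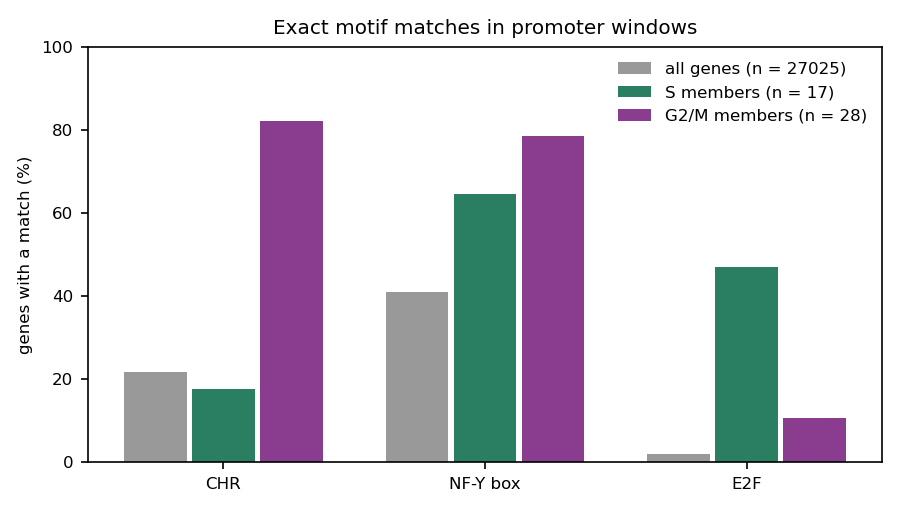
Share of genes (%) whose promoter window of 300 bases holds an exact match to the CHR letters, the NF-Y box or the E2F letters, for all genes of the RefSeq table (grey), the 17 S genes and the 28 G2/M genes matched. CHR matches stand at 82.1% of the G2/M genes against 17.6% of the S genes, and E2F matches at 47.1% of the S genes against 10.7% of the G2/M genes.

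CD8 T cells held the largest mean share of cycling cells among the 15 classes when all UMIs were used, with 39.8%, 39.5%, 37.9% and 39.4% in the 4 libraries. The 4 libraries were close to each other. NK cells followed among the lymphocytes with 25.5%, 35.0%, 27.0% and 29.8%, and regulatory T (Treg) cells with 21.5%, 22.3%, 23.6% and 27.7%. These neighbours in the order overlap in range. Fibroblast-like cells, which the sort should have removed, ranged from 15.9% to 42.1%. Macrophages stood at 14.2%, 17.4%, 20.9% and 21.6%, and CD4 conventional T cells at 18.2%, 16.3%, 11.9% and 11.8%. Both cKO values were above both WT values in 5 of the 15 classes, namely macrophages, Treg, fibroblast-like cells, type 2 dendritic cells (cDC2) and monocytes. They were below them in another 5, namely CD4 conventional T, CD8 T, B cells, migratory dendritic cells and neutrophils.

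Neutrophils, which are mature and do not divide, had 7.84%, 5.62%, 5.26% and 2.94% of cycling cells, from 4, 5, 5 and 1 cells at a median of 2356 to 2804 UMIs. No cycling is read here from shares within or below that range alone. Monocytes had 4.57%, 4.90%, 6.64% and 5.24%, all within it, at a deeper median of 10344 to 13068 UMIs per cell. B cells (0.885% to 2.60%) were below it, and plasmacytoid dendritic cells (0.476% to 3.19%) were below it but for 1 library. Non-classical monocytes stood at 4.87%, 5.14%, 11.1% and 4.98%, so that cKO-1 alone was above the range. Migratory dendritic cells stood at 9.24%, 4.76%, 4.35% and 3.80%, with WT-1 alone above it. In cDC2 the WT values of 7.10% and 6.56% were within the range and the cKO values of 11.8% and 8.97% above it. The cDC2 cells were also deeper than neutrophils, with a median of up to 16197 UMIs. With all cells thinned to equal depth, neutrophils stood at 0%, 9.68%, 2.63% and 0%, from 11 to 38 cells per library. The cDC2 shares were then 1.19%, 1.11%, 3.09% and 1.75%, all within that thinned range. No cycling is therefore read from the cDC2 shares alone. The cells called cycling also carried the other members, with 47 of the 55 (the 3 genes of the rule included) at more than 2 times the CPM of non-cycling cells in monocytes (median ratio 3.69) and 51 in migratory dendritic cells (median 6.14). RNA of one cell captured with another can add such UMIs, and its part was not tested.

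Part of this order changed at equal depth. When every cell was thinned to 3000 UMIs and shallower cells were left out, CD8 T cells had a mean share of 24.9% and fibroblast-like cells a slightly higher one of 25.6%, with values of 9.52%, 31.7%, 37.1% and 23.9%. The fibroblast-like libraries span the CD8 values on both sides. Thinned CD8 shares were 24.1%, 28.0%, 23.4% and 24.3% and thinned Treg shares 11.8%, 14.4%, 8.40% and 17.8%, so the genotypes overlapped in both. They overlapped after thinning in fibroblast-like cells, monocytes, migratory dendritic cells and neutrophils as well. Both cKO libraries stayed above both WT libraries in macrophages (6.38%, 8.68%, 11.7% and 13.1%) and cDC2, and below them in CD4 conventional T and B cells. Thinned CD4 values were 14.2%, 10.9%, 5.03% and 4.29%, from 240, 303, 159 and 140 cells, with 92 WT and 47 cKO cells left out. Non-classical monocytes did not overlap after thinning only, at 0.543%, 0.485%, 1.35% and 0.702%, from 2 to 4 cycling cells per library. Median depth in Treg cells was 5405 and 5337 UMIs in WT against 7299 and 6979 in cKO.

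**Figure D2:**
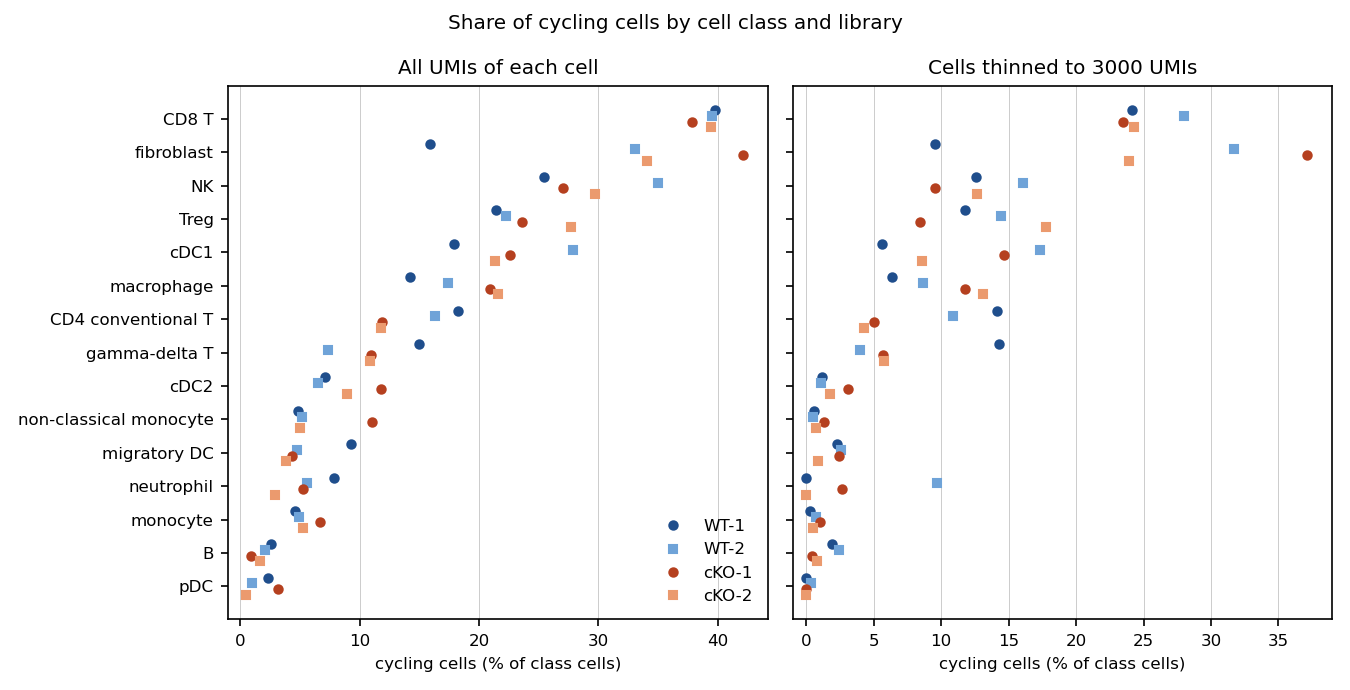
Share of cycling cells (% of the cells of a class, x axis) in each of 15 classes (y axis), 1 symbol per library, from all UMIs of each cell (left) and after thinning every cell to 3000 UMIs (right). CD8 T cells lie at 37.9% to 39.8% in the left panel, and the CD4 conventional T libraries fall from 18.2% and 16.3% in WT to 11.9% and 11.8% in cKO.

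None of the shares differed between genotypes after adjustment over the 15 classes (edgeR on counts of cycling cells with the class total as the offset). For macrophages the log2 fold change was 0.43 ± 0.14 (SE, unadjusted p 0.0086, adjusted p 0.129), at median depths of 4533, 4288, 4487 and 6175 UMIs. For CD4 conventional T cells it was -0.54 ± 0.28 (adjusted p 0.309), and for cDC2 0.57 ± 0.24 (adjusted p 0.242). The cKO libraries were deeper in both of these classes, with 5402, 4966, 6128 and 5884 UMIs in CD4 and 12392, 11791, 16197 and 14008 UMIs in cDC2. Thinned cDC2 shares were 1.19%, 1.11%, 3.09% and 1.75%. The exact two-sided permutation test gave 0.333 for each of these 3, the smallest p that 2 against 2 libraries can give. Clopper-Pearson 95% intervals of the CD4 shares ran from 13.9% to 23.2% in WT-1, 12.6% to 20.6% in WT-2, 7.60% to 17.4% in cKO-1 and 7.26% to 17.8% in cKO-2. They cover counting error only and overlap between genotypes.

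In T cells, NK cells and macrophages the 55 genes had higher levels in cycling cells, which for Mki67, Top2a and Pclaf is fixed by the rule. The median ratio of CPM in cycling over non-cycling cells was 9.20 for CD8 T cells, 8.53 for CD4 conventional T, 9.56 for Treg cells, 7.62 in NK cells and 5.55 in macrophages. In CD8 T cells the smallest ratio was that of the helicase subunit Mcm6, at 1.80, and Smc4, a condensin ATPase, had 2.85. Pcna had a ratio of 2.68 there, with 387 CPM left in non-cycling cells. Cenpf, a kinetochore protein of G2/M, had 19.3. Cycling CD8 T cells held 72.2% of the Mcm6 UMIs of the class and 96.5% of the Cenpf UMIs.

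Ncapg2, a subunit of condensin II, departed from this in macrophages, where it stood at 88.9 CPM in cycling and 70.2 CPM in non-cycling cells (ratio 1.27). In non-cycling CD8 T cells it was at 22.5 CPM and in non-cycling NK cells at 14.96 CPM. Only 33.6% of its macrophage UMIs came from cycling cells, against 90.2% for Mki67. Rad51b, a gene of recombination repair, had its highest mean of the 15 classes in migratory dendritic cells, at 146, 240, 287 and 277 CPM (237 ± 64.1 SD, n = 4). Those cells were rarely cycling (mean share 5.54%), and their Rad51b was 256 CPM in non-cycling against 102 CPM in the 28 cycling cells, so that 5.87% of its UMIs were from cycling cells. In CD8 T cells 90.3% of its UMIs were. Rad51b spans 517 kb and Diaph3 486 kb, against a median of 17.3 kb over the 55 genes, and no other member is longer than 100 kb.

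CD4 conventional T cells had the most calls among the members. All 55 genes had a log2 fold change below 0 (cKO over WT), and 18 fell with an adjusted p under 0.05, while none rose. That is 32.7% of the 55, beside 0.905% of the 8952 genes tested in either direction, of which 0.559% lower and 0.346% higher. Because the 55 were chosen with earlier results of these data known, this contrast is a description and not an independent test. The median log2 fold change was -0.83, against 0.01 over all genes. Both cKO libraries lay below both WT libraries for 49 of the 55, beside 21.1% of all genes tested. The class held 280, 355, 185 and 161 cells. Fewer cycling cells and less RNA per cycling cell cannot be told apart in these sums. Of the 33 G2/M genes 15 fell (median -1.07), and of the 20 S genes 1 fell (median -0.52). Diaph3 and Rad51b fell as well.

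**Figure D3:**
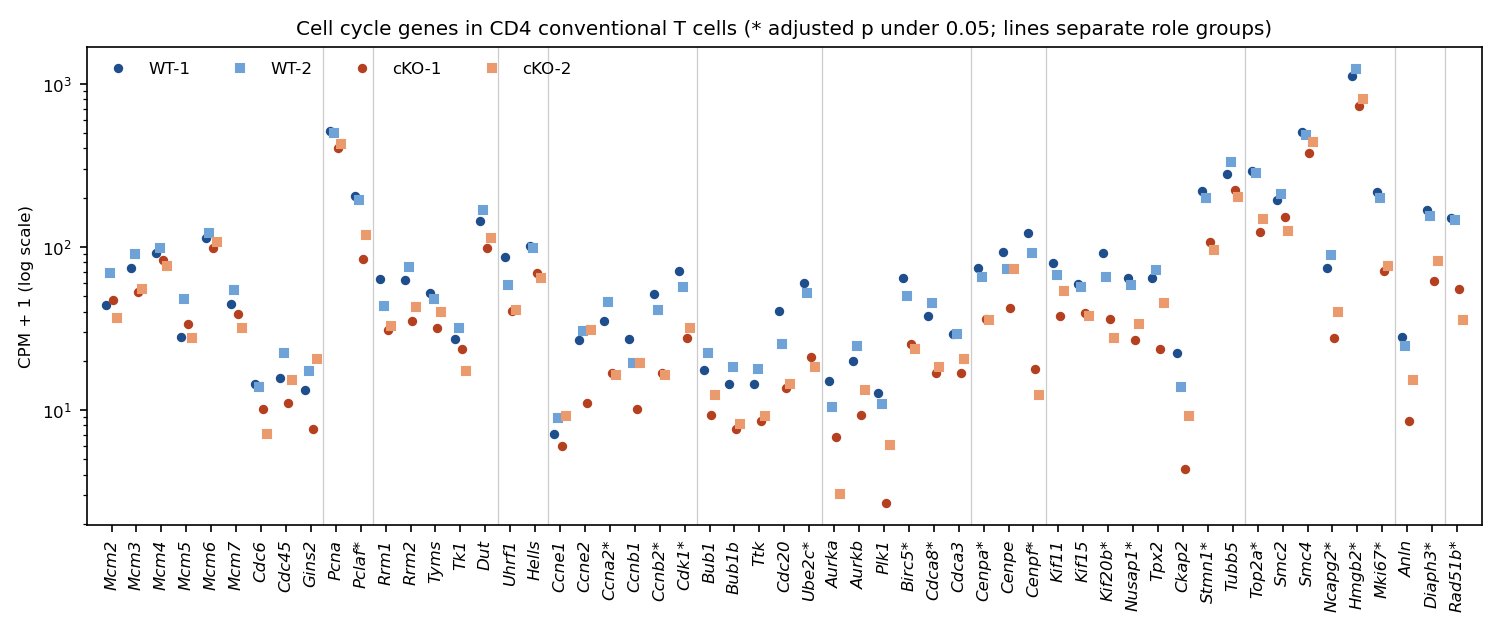
Level of each of the 55 genes in CD4 conventional T cells (CPM + 1, log scale on the y axis), 1 symbol per library, in order of role with lines between role groups and a star for an adjusted p under 0.05. Apart from Pclaf the starred genes lie to the right of the S genes, with Cenpf showing the widest gap, from 121 and 90.02 CPM in WT to 16.7 and 11.2 CPM in cKO.

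Among the 9 genes of origin licensing and firing none passed the test, and their median was -0.43. Mcm6 stood at 111 and 121 CPM in WT-1 and WT-2 and at 96.6 and 106 CPM in cKO-1 and cKO-2 (log2 fold change -0.19 ± 0.17). Mcm4, of the same helicase, stood at 89.8, 96.9, 81.6 and 75.6 CPM, and the loading factor Cdc6 at 13.4, 12.9, 9.16 and 6.13 CPM. The groups did not overlap for these 3 genes, yet the gaps were small against the error. Of the sliding clamp pair, Pcna was at 514, 500, 401 and 424 CPM (-0.29 ± 0.14, adjusted p 0.493). Its partner Pclaf, a clamp-binding factor, fell from 205 and 191 CPM to 83.3 and 116 CPM (-0.99 ± 0.18, adjusted p 0.00475). Pclaf was the single S gene that passed.

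The 5 genes of nucleotide supply had no call and a median of -0.56. Dut, which removes dUTP, was at 142, 168, 96.6 and 112 CPM, and Rrm2, the regulated subunit of ribonucleotide reductase, at 61.1, 74.2, 34.1 and 41.9 CPM (-0.83 ± 0.24, adjusted p 0.121). Neither overlapped between genotypes. Of the chromatin copying pair, Hells, a remodeller, stood at 99.6, 96.9, 68.3 and 63.3 CPM. Uhrf1, which brings maintenance methylation to copied DNA, stood at 85.5, 57.4, 39.1 and 39.8 CPM (-0.83 ± 0.24, adjusted p 0.14). The S phase cyclins Ccne1 and Ccne2 overlapped between genotypes.

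Among the mitotic cyclins Ccnb2 and Ccna2 fell, as did their kinase Cdk1, while Ccnb1 (cyclin B1) did not pass the test. Ccnb2 (cyclin B2) went from 50.1 and 40.1 CPM in WT to 15.8 and 15.3 CPM in cKO (-1.51 ± 0.30, adjusted p 0.0106). Ccna2 (cyclin A2) went from 34.2 and 45.0 to 15.8 and 15.3 CPM (-1.34 ± 0.31, adjusted p 0.0318). Cdk1 went from 70.2 and 55.9 to 26.7 and 30.6 CPM (-1.12 ± 0.25, adjusted p 0.0269). In all 3 the groups did not overlap. Of the 5 genes of the spindle checkpoint and the anaphase-promoting complex only Ube2c, the ubiquitin-conjugating enzyme that works with that complex, passed, with 59.2, 50.9, 19.99 and 17.4 CPM (-1.53 ± 0.28, adjusted p 0.00475). The checkpoint kinase Bub1 was at 16.5, 21.3, 8.33 and 11.2 CPM.

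Of the 6 genes of the mitotic kinases and the passenger complex 2 fell. Birc5 (survivin) went from 63.5 and 48.5 CPM to 24.2 and 22.5 CPM (-1.24 ± 0.27, adjusted p 0.0246), and Cdca8 (borealin) from 36.6 and 44.0 to 15.8 and 17.4 CPM (-1.28 ± 0.30, adjusted p 0.0366). Both belong to the complex that corrects kinetochore attachment. The kinase Plk1 had a larger fold change (-1.69 ± 0.59) at 11.6, 9.89, 1.67 and 5.11 CPM, from 2 and 5 UMIs in the cKO libraries, and did not pass (adjusted p 0.257). Among the kinetochore genes, Cenpf stood at 121, 90.02, 16.7 and 11.2 CPM (-2.87 ± 0.27, adjusted p 2.33e-06), the largest fall of the 55. Cenpa, the centromeric histone, went from 72.7 and 64.3 to 35.0 and 34.7 CPM (-0.96 ± 0.23, adjusted p 0.0469). The motor Cenpe did not pass, at 92.2, 72.2, 40.8 and 71.5 CPM, although its cKO values were both the lower.

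Of the 8 spindle and microtubule genes 3 fell. Stmn1 (stathmin), which destabilises microtubules, went from 217 and 196 CPM to 106 and 94.0 CPM (-1.03 ± 0.17, adjusted p 0.00163). Kif20b, a motor of cytokinesis, went from 89.8 and 64.3 to 35.0 and 26.6 CPM (-1.29 ± 0.25, adjusted p 0.00819). Nusap1, which binds spindle microtubules, went from 62.9 and 57.4 to 25.8 and 32.7 CPM (-1.04 ± 0.25, adjusted p 0.0476). Tubb5, a beta tubulin that resting cells also use, was at 277, 329, 221 and 201 CPM and did not pass (adjusted p 0.173), nor did Ckap2 with 21.4, 12.9, 3.33 and 8.17 CPM.

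Chromosome structure was the group with the most calls, 4 of 6. Mki67, which coats mitotic chromosomes, fell from 214 and 197 CPM to 70.0 and 74.5 CPM (-1.50 ± 0.17, adjusted p 5.04e-05). Top2a (topoisomerase II) fell from 290 and 280 to 122 and 147 CPM (-1.07 ± 0.16, adjusted p 0.00086). Ncapg2 fell from 73.3 and 87.5 to 26.7 and 38.8 CPM (-1.31 ± 0.24, adjusted p 0.00524). In these 3 the groups were far apart against the spread within each. Hmgb2, a DNA-bending protein, fell less, from 1107 and 1232 to 729 and 798 CPM (-0.61 ± 0.13, adjusted p 0.0246). Smc4, at 502, 480, 376 and 438 CPM, did not pass.

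The cytokinesis formin Diaph3 fell from 167 and 153 CPM to 60.8 and 80.7 CPM (-1.18 ± 0.18, adjusted p 0.00115). The scaffold Anln, in the same role, was at 26.9, 23.7, 7.50 and 14.3 CPM and did not pass (adjusted p 0.154). Rad51b fell from 149 and 145 CPM to 54.1 and 34.7 CPM (-1.69 ± 0.20, adjusted p 6.41e-05). Its WT libraries were nearly equal, and both cKO libraries were lower.

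Genes of the cycle outside the 55 were taken from 5 further lists. Of 38 other G2/M genes 35 were tested, 9 fell, none rose and the median was -1.0. The hyaluronan-binding spindle protein Hmmr went from 53.1 and 38.6 CPM to 9.99 and 11.2 CPM (-2.09 ± 0.33, adjusted p 0.00115), and the checkpoint protein Mad2l1 from 54.4 and 67.3 to 15.8 and 24.5 CPM (-1.61 ± 0.29, adjusted p 0.00379). Both lost most of their WT level. The kinetochore scaffold Knl1 stood at 64.1, 64.8, 22.5 and 30.6 CPM, the spindle bundler Prc1 at 92.2, 57.4, 29.98 and 32.7 CPM, and the kinase subunit Cks1b at 91.01, 115, 57.5 and 50.04 CPM. Ect2, Cit, Ncaph and Ckap2l were the others, with adjusted p from 0.0071 to 0.0318. Ncaph had 0 and 2.04 CPM in the cKO libraries, so that it passed the filter on low counts through WT alone. Cks2 did not pass, at 91.01, 87.5, 69.96 and 71.5 CPM. Of 24 other S genes 2 fell, Pola1 (DNA polymerase alpha) from 229 and 204 to 120 and 142 CPM and Lig1 (DNA ligase) from 75.1 and 90.02 to 43.3 and 44.9 CPM. The list's median was -0.64, and Slbp, which binds histone RNA, was at 166, 145, 115 and 152 CPM with overlapping groups.

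None of the 20 tested genes of G1 control, Rb and E2F passed (median -0.27), none of 7 CDK inhibitors and quiescence genes (median 0.04) and none of 9 homologous recombination genes (median -0.77). Ccnd2 (cyclin D2) stood at 488, 641, 581 and 627 CPM, with overlapping groups, and Cdk6 at 526, 594, 511 and 415 CPM. Btg1, an antiproliferative factor, stood at 1182, 958, 1361 and 1404 CPM (0.38 ± 0.13, adjusted p 0.251), and Btg2 at 326, 280, 339 and 364 CPM. In recombination Blm, a helicase, was at 31.8, 25.2, 18.3 and 13.3 CPM.

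The fall in CD4 conventional T cells depended on which cells were counted. At a finer clustering (resolution 2 in place of 1), most of the class split into a Nebl-led and a Cd40lg-led cluster, each named here for its first leading gene and fitted apart after the data were seen. Cd40lg is also among the leading genes of the Nebl-led cluster, beside Il17a and Ccr6. The Nebl-led cells were 57.5%, 63.7%, 48.6% and 37.9% of the class, lower in both cKO libraries. Their shares of cycling cells were 24.2%, 20.4%, 14.4% and 14.8%, against 9.71%, 6.60%, 8.33% and 6.41% in the Cd40lg-led cells. Within the Nebl-led cells alone 15 of 53 tested members fell, with a median of -1.15, beside 0.541% of all genes tested there. Mki67 was at 289, 273, 110 and 39.6 CPM in them, Rad51b at 218, 164, 49.7 and 39.6 CPM, and Cenpf at 152, 129, 36.8 and 0 CPM. Within the Cd40lg-led cells 0 of 28 tested members passed by edgeR (0% of all genes were called there). At an unadjusted p under 0.05 there were 3, beside 380 of all 6303 genes.

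When the cycle genes were kept among the genes used for clustering, 1 of 46 tested members passed, Rad51b, beside 0.332% of all genes tested. In that clustering 52 cells of the class, 41 of them cycling (18, 17, 4 and 2 in the 4 libraries), joined a cluster named CD8 T. Those 52 cells held 277 CPM of Cd40lg and 27.7 CPM of Cd8a, against 6.27 and 760 CPM in CD8 T cells without a mixed cluster. That mixed cluster of 118 cycling T cells (35, 50, 16 and 17) is part of the CD8 T class here and had 32.4 CPM of Cd40lg and 326 CPM of Cd8a. Adding it to the CD4 class, a choice made after seeing the data, left 0 of 55 called (0.126% of all genes), with adjusted p 0.0504 for both Cenpf and Rad51b. In that fit 22 members had an unadjusted p under 0.05, beside 787 of all 9544 genes. Leaving out cKO-1 left 10 calls (1.07% of all genes) and DESeq2 gave 8 (0.313% of all genes), all among the 18. Of the 226 values that the 18 genes had over 13 alternatives, 141 passed the test.

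Other features of the class moved with genotype. Cd4 itself was at 201, 211, 458 and 468 CPM. The 8 macrophage markers, all detected, summed to 970, 922, 1349 and 1235 CPM in the class, against a mean of 8679 CPM in macrophages. Their part in the result was not tested.

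Among cycling CD4 conventional T cells alone (51, 58, 22 and 19 cells) 2 of 54 tested members passed, beside 0.0356% of all genes, and both fell. Cenpf was at 388, 318, 81.8 and 53.4 CPM (-2.33 ± 0.33, adjusted p 0.0196) and Rad51b at 422, 425, 134 and 101 CPM (-1.82 ± 0.28, adjusted p 0.035). For both genes each cKO library lay below each WT library. The median over the 54 was -0.62, and 52 were below 0. Of these cycling cells 42, 38, 13 and 6 had 5 or more UMIs of Mki67, Top2a and Pclaf together. That is a smaller part in both cKO libraries than in either WT library. Its part in the lower levels was not tested. Among non-cycling cells 0 of 35 tested members passed by edgeR (0.158% of all genes), with a median of -0.13. At an unadjusted p under 0.05 there were 4, beside 563 of all 8204 genes. The cells were split by their own UMIs of Mki67, Top2a and Pclaf, which are members. The lack of calls among non-cycling cells is therefore partly fixed by the rule, and nothing is read from it. The last library of the cycling cells is under the minimum of 20 cells set for such a fit.

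In the other T cells, by the same test, no member passed, though more members lay below 0 than above it. The counts below and above 0 were 47 and 8 in CD8 T, 36 and 19 in Treg, and 51 and 4 in all T cells. With the mixed cycling cluster left out, a choice made after seeing the data, CD8 T cells had 35 and 20, with a median of -0.05. In gamma-delta T cells the counts were 32 and 3 of the 35 tested, with a median of -0.60. Their 55 genes summed to 8443, 2672, 3233 and 3135 CPM, so WT-1, with 40 cells, stood above the rest and WT-2 was the lowest. There 9 members had an unadjusted p under 0.05, beside 415 of all 5973 genes. CD8 T cells had 0 of 55 calls (0.0695% of all genes, 0.00868% lower and 0.0608% higher) and a median of -0.09. At an unadjusted p under 0.05 there were 3, beside 874 of all 11519 genes. Both cKO libraries lay below both WT libraries for 20 of the 55, beside 20.2% of all genes. Mki67 was at 318, 306, 322 and 293 CPM there, and Rad51b at 169, 157, 166 and 123 CPM. Treg cells had 0 of 55 (0.0961% of all genes, 0.0427% lower and 0.0534% higher) and a median of -0.08. Unadjusted there were 3, beside 516 of all 9361 genes, and Treg Rad51b stood at 157, 141, 147 and 142 CPM. Groups overlapped for Mki67 in CD8 T cells. All T cells together had 0 of 55 (0.00815% of all genes), 4 unadjusted (beside 945 of all 12267 genes) and a median of -0.15.

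The genotype effect was compared between classes directly, by an interaction term in a fit with the libraries as blocks. Between CD4 conventional and CD8 T cells 4 members differed, all with a lower log2 fold change in CD4 cells (0.0487% of 14364 genes). The difference was -2.84 ± 0.54 for Cenpf, -1.84 ± 0.36 for Ube2c and -1.47 ± 0.29 for Mki67, each with adjusted p 0.0413. It was -1.51 ± 0.26 for Rad51b (adjusted p 0.0155). Between CD4 conventional T and Treg cells Rad51b alone of the 55 passed, with -1.66 ± 0.28 (adjusted p 0.0286, 0.0139% of all genes). Without cKO-2 neither contrast kept a call among the members, without cKO-1 the first kept 1 (0.161% of all genes), and with the cycle genes kept in clustering there was none in either. Between NK and CD8 T cells, and between macrophages and monocytes, 0 members passed, beside 2 of 14364 genes in each. At an unadjusted p under 0.05 there were 2 and 8 members. The share of all genes at that threshold was not counted, so these are no contrast with other genes.

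**Figure D4:**
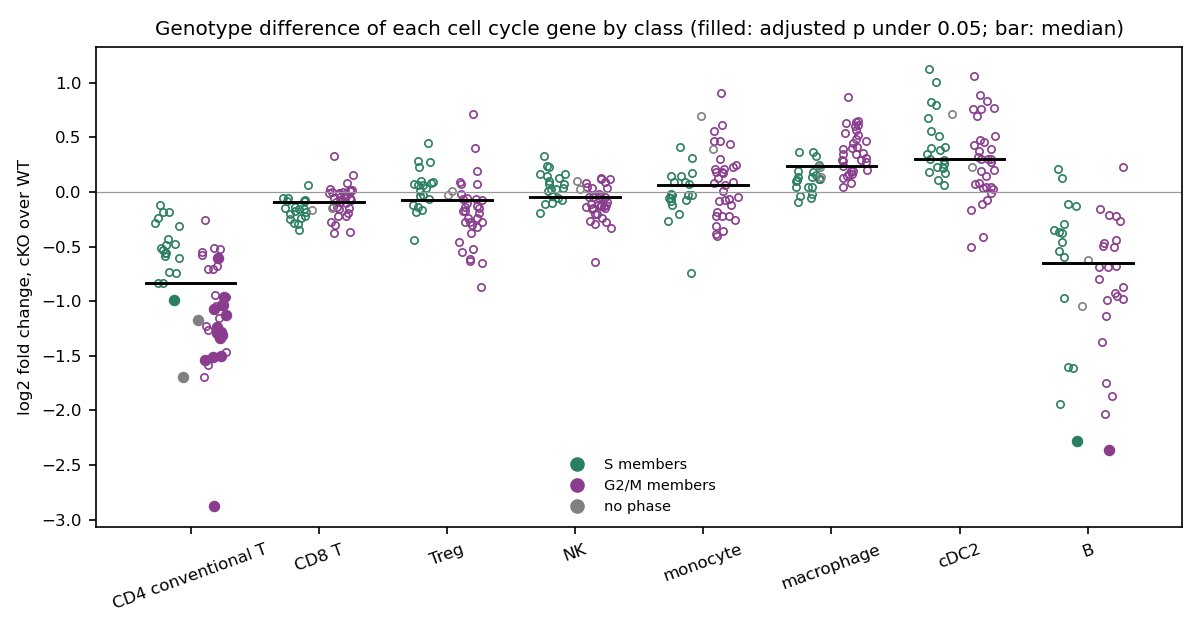
Log2 fold change of each tested member (cKO over WT, y axis) in 8 classes, with S genes in green, G2/M genes in purple, the 2 genes without a phase in grey, filled symbols for an adjusted p under 0.05 and a bar at the median. The CD4 conventional T values all lie below 0 with a median of -0.83, while the medians of CD8 T, Treg, NK and monocyte lie between -0.09 and 0.06.

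Macrophages and cDC2 leaned the other way without a call. In macrophages 51 of 55 members had a log2 fold change above 0 and the median was 0.23. Both cKO libraries lay above both WT libraries for 21 of them, beside 16.6% of all genes tested. No member passed (0% of all genes did), with 11 at an unadjusted p under 0.05, beside 672 of all 12655 genes at that threshold. Mki67 was at 50.4, 80.5, 92.6 and 108 CPM, Top2a at 59.1, 98.1, 115 and 113 CPM and Cenpf at 13.9, 40.5, 35.3 and 50.4 CPM. WT-1 was the lowest library for each of these 3. Without WT-2, 30 of 55 rose with an adjusted p under 0.05, beside 1.42% of all genes called in either direction, and without WT-1 1 did, beside 1.24%, so the count depended on which WT library was kept.

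In cDC2 49 of 55 were above 0, the median was 0.30 and both cKO libraries were above both WT libraries for 31 (18% of all genes). None passed (0.0171% of all genes), with 20 at an unadjusted p under 0.05, beside 789 of all 11710 genes at that threshold. Top2a was at 28.5, 27.5, 52.2 and 43.2 CPM (0.76 ± 0.14, adjusted p 0.148) and Pclaf at 26.2, 26.4, 45.8 and 39.1 CPM. Neither overlapped between genotypes. Monocytes had a median of 0.06 and no call (0% of all genes), with 3 members unadjusted, beside 720 of all 13522 genes. Their 55 genes summed to 1049, 1210, 1237 and 1039 CPM. In that sum the genotypes overlapped, as they did in non-classical monocytes, migratory dendritic cells and neutrophils. NK cells had a median of -0.04 and no call (0% of all genes), with 2 members unadjusted, beside 684 of all 12228 genes.

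B cells were the other class with calls. Of 42 members that passed the filter on low counts 2 fell, beside 0.127% of all genes in either direction (0.115% lower, 0.0115% higher). Both cKO libraries lay below both WT libraries for 25 and above them for 1, beside 19.7% and 19.6% of all genes. Pclaf was at 71.5, 66.2, 20.8 and 7.81 CPM (-2.28 ± 0.33, adjusted p 0.0168) and Ncapg2 at 39.0, 25.6, 6.67 and 5.68 CPM (-2.36 ± 0.37, adjusted p 0.0291). The groups did not overlap for either. Ncapg2 passed the filter on low counts through its WT libraries alone, with both cKO libraries under the level of the filter. A gene admitted in this way is low in cKO by the filter, so its call is not separate support for a fall. How many of the 25 were admitted in this way was not counted. The class had 28 cycling cells in all. The 5 plasma cell markers, all detected, summed to 8127, 17160, 3106 and 3929 CPM in the class, so that both cKO libraries were lower. The 6 Treg markers summed to 566, 380, 251 and 278 CPM and the 8 macrophage markers to 911, 582, 432 and 563 CPM, all detected and also lower in both cKO libraries. Their part in the fall was not tested. Both calls were lost at clustering resolution 2 and when predicted doublets were kept.

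The balance of S over G2/M transcripts in cycling cells was taken as the log2 ratio of the summed CPM of 19 S and 31 G2/M members, without the genes that define a cycling cell. In NK cells it was -0.95 and -0.997 in WT and -0.79 and -0.81 in cKO, so that S over G2/M RNA was higher in the cKO libraries. In this ratio the 2 genotypes did not overlap, and the exact permutation p was 0.333, the smallest possible. The sums themselves overlapped, with 2959, 2592, 2640 and 2969 CPM for the S members. For the G2/M members they were 5713, 5175, 4576 and 5190 CPM. CD8 T cells had -1.10, -1.28, -1.34 and -1.23, Treg cells -0.98, -1.82, -1.35 and -1.30, and macrophages -1.05, -1.37, -1.36 and -1.67. In these 3 classes the ranges of the genotypes overlapped.

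**Figure D5:**
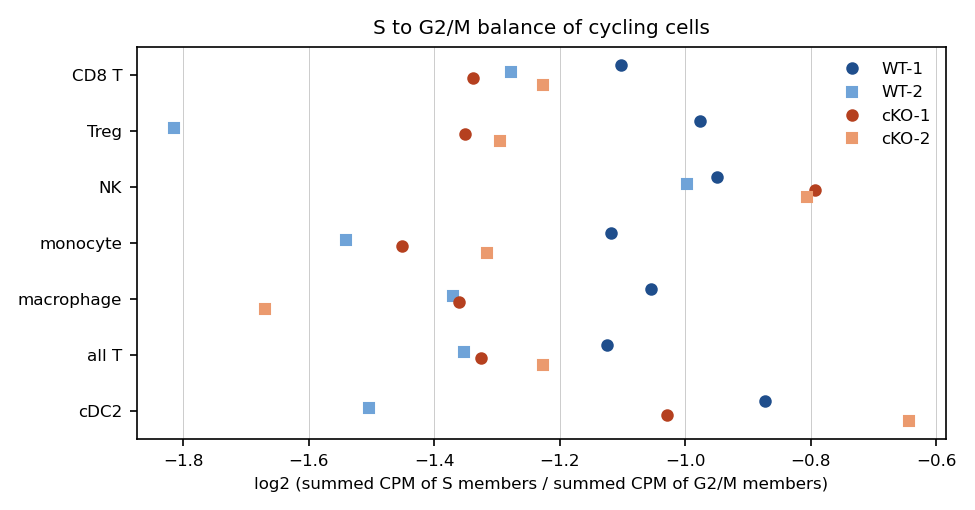
Log2 ratio of the summed CPM of S over G2/M members in cycling cells (x axis) for 7 classes (y axis), 1 symbol per library. NK libraries split by genotype, at -0.95 and -0.997 in WT and -0.79 and -0.81 in cKO, while the Treg libraries of WT span -1.82 to -0.98.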

How the data were processed

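Single-cell RNA sequencing of CD45-sorted tumour cells gave 4 libraries, 2 per genotype, grouped by the labels' genotype. The authors deposited raw counts of UMIs per gene and barcode, not normalized; the files hold whole numbers and no barcode has under 500 UMIs. The submitters' processing notes name Cell Ranger, STAR and mm10; the sources used here give no versions, annotation or cell calling. Whether empty droplets remain was not tested.

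The cell filter asked for 300 genes, 500 UMIs and no more than 15% mitochondrial UMIs. Scrublet's automatic threshold marked 0 cells in each library and so had not worked; cells scoring above 0.2 (1.10% to 1.76%) and clusters with a median above 0.1 were set apart. Clustering (scanpy 1.11.5, leidenalg 0.10.2, resolution 1, 2000 variable genes, 30 components) left out 282 cell cycle genes, and clusters were named from fixed markers. UMIs were summed per library and class and tested with edgeR 4.0.16 (quasi-likelihood, TMM, filterByExpr, R 4.3.3), Benjamini-Hochberg adjusted over all genes of the class, with DESeq2 1.42.0 as an alternative. CPM are counts scaled to a class total of 1000000. Depth limits precision. In data simulated at the CD4 class's depth, 67.7% of genes changed by log2 1 were called and 92.9% of those changed by log2 2. Of the calls there 2.50% were false. At the depth of macrophages these values were 75.3%, 94.9% and 7.91%.

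Cycling shares were tested in edgeR with the class total as offset. Alternatives were other clusterings, cycling thresholds, filters, normalization, doublets kept, a replicate block and leaving out each library; the parts of the CD4 class, the mixed cluster, the non-cycling refits and the fit on its cycling cells were added after the data were seen. The members and lists were chosen with earlier results of these data known. Genes were named that passed in a class tested, and in each role group the 2 highest in cycling cells and the one with the largest CD4 change, and from the pathway lists those that passed and the 2 highest; 1 gene this rule names is not reported here. Promoters came from a RefSeq table, without chromosome 18.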

Additional observations from a re-analysis of the deposited data

Results flagged for a closer look

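For 4 genes the genotype effect differed between CD4 conventional and CD8 T cells by a direct test of the difference (edgeR interaction term, adjusted p under 0.05). The difference in log2 fold change was -2.84 for the kinetochore gene Cenpf, -1.84 for Ube2c, -1.47 for Mki67 and -1.51 for Rad51b. For Rad51b the effect also differed between CD4 conventional T and Treg cells, by -1.66. Rad51b was at 149, 145, 54.1 and 34.7 CPM in CD4 cells, at 169, 157, 166 and 123 CPM in CD8 T cells and at 157, 141, 147 and 142 CPM in Treg cells. With the cycle genes kept in clustering, and without cKO-2, 0 of the 55 differed in either contrast.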

How the results depend on the processing

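The fall in CD4 conventional T cells (18 of 55 called) gave 10 to 20 calls when 1 library was left out (10 without cKO-1), 8 with DESeq2, 28 at resolution 2, 1 with the cycle genes kept in clustering, 15 in Nebl-led cells, 0 in Cd40lg-led cells and 0 with the mixed cluster added. Cenpa changed sign in the Cd40lg-led cells (0.048). The 2 calls of B cells became 3 to 8 without 1 library, 1 with DESeq2, 9 without the filter, and 0 at resolution 2 or with doublets kept. Calls in other classes, 0 in the reported fit, ranged over left-out libraries from 0 to 1 in CD8 T and all T, 0 to 2 in Treg, 0 to 3 in NK and 0 to 30 in macrophages. Without the filter there was 1 in NK and 2 in monocytes. In cycling cells they ranged from 0 to 1 in CD8 T, NK and all T, 0 to 2 in Treg, 0 to 4 in monocytes, 0 to 19 in macrophages and 2 to 5 in CD4 cells, and in non-cycling cells from 0 to 1 in NK and monocytes. The 4 differences of CD4 from CD8 T cells ranged from 0 to 4, with 0 when the cycle genes were kept; the 1 from Treg ranged from 0 to 3, with 0 likewise. The cause was not tested. Calls among all genes moved with the setting as well. They were 81 of 8952 in the reported CD4 fit, 41 of 7574 in Nebl-led cells and 12 of 9544 with the mixed cluster added. Where the share of all genes is not given for a setting, its count of members is not a contrast with other genes.

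The share's log2 fold change changed sign in CD8 T (0.026) and all T (0.030) with the mixed cluster moved. With 1 library left out it ran from -0.29 to 0.16 in NK (above 0 without WT-2) and from -0.11 to 0.065 in all T (above 0 without cKO-1). None passed the test. The S to G2/M balance changed sign with 1 library left out in Treg (-0.35 to 0.49, below 0 without WT-2), in monocytes (-0.26 to 0.16, above 0 without WT-1 or cKO-1) and in all T (-0.15 to 0.077, likewise).

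The libraries share only a number between genotypes. Same-numbered libraries deviated together little, with correlations from -0.11 in monocytes to 0.07 in Treg. The replicate block left 11 calls in CD4 cells and changed no other count of calls by over 1.5 times; in monocytes the crossed pairing gave 0, as did the plain one. Depth limits the low genes: Plk1 had 2 and 5 UMIs in the cKO libraries.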

Other observations

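Cells that were set apart also held cycling cells. Droplets with mixed profiles had 36.7%, 37.8%, 42.9% and 35.9% of cycling cells (WT libraries first), at a median depth of 20806 to 27444 UMIs. Cells of unnamed clusters had 7.44%, 8.02%, 9.31% and 11.2%. A cluster of shallow barcodes, with a median of 885 to 931 UMIs, had 10.1%, 8.04%, 8.96% and 9.27%.

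In gamma-delta T cells, of which WT-1 had 40, the 55 genes summed to 8443 CPM in WT-1 against 2672, 3233 and 3135 CPM in the other libraries. Mki67 was at 262, 34.1, 67.0 and 118 CPM there, so 1 WT library stood above the rest, and no member passed the test in that class.

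Ncapg2 in monocytes was at 41.9, 35.0, 62.7 and 54.7 CPM (log2 fold change 0.61 ± 0.13, edgeR adjusted p 0.602), with both cKO libraries above both WT libraries.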
